A study of Mus musculus with 10 samples.

Results

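The Wnt antagonists that bone cells secrete were followed in osteocytes of mice with and without myeloma. The genes Sost, Sostdc1, Dkk1, Dkk2, Dkk3, Sfrp1, Sfrp2, Sfrp4, Frzb and Wif1 were taken by name from a table of 22548 genes. All 10 were found, and all 10 had enough reads to be tested. The mice were male C57BL/6 animals, with an age of 8 weeks and no engineered allele given in the labels. In the paper, femurs of this model were examined some weeks after injection. Whether the labelled age is that at injection or at sampling is not known here. The MM group (n = 5) had been injected in the femur with Vk12598, a mouse line of Vk*MYC myeloma, a cancer of plasma cells. The No MM group (n = 5) consisted of control mice that received no such cells. For controls of this model, the paper's methods describe an injection of PBS. Osteocytes were released from femoral bone pieces by repeated digestion with collagenase and EDTA, and 1 RNA-seq library was made for each mouse. No sort on a marker was described, so the cell pellets can hold other cells of bone and marrow.

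Wnt proteins bind a frizzled receptor together with LRP5 or LRP6, and this stabilizes beta-catenin and drives the formation of osteoblasts. Secreted antagonists block the step outside the cell. Sclerostin and the Dickkopf proteins occupy the LRP co-receptors, whereas secreted frizzled-related proteins and WIF1 bind the Wnt proteins themselves. Sclerostin, the product of Sost, is made mainly by osteocytes and restrains bone formation, and DKK1 is known as a secreted inhibitor of osteoblasts in myeloma bone disease. The comparison of MM with No MM asked whether the RNA for these antagonists was higher or lower in osteocytes exposed to myeloma.

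The libraries held between 31099174 and 39466332 reads counted on genes, and 3 reads, taken as the detection floor, equaled 0.0709 to 0.114 CPM, the usual count scaled to sequencing depth. Floors cover counting error only. Levels below are CPM after scaling by TMM, a method that corrects for differences in RNA composition. Of the 9 osteocyte markers, which include the members Sost and Dkk1, all were detected. None had an unadjusted p under 0.05, beside 14.1% of all tested genes. Dmp1, a matrix protein of osteocytes, stood at 414 ± 309 CPM in No MM and 415 ± 293 CPM in MM (SD, n = 5 each). Markers of other cells were also present, with sums of 1810 to 39660 CPM in No MM and 12570 to 47420 CPM in MM for 8 osteoblast genes, and of 6860 to 31810 CPM against 9813 to 29560 CPM for 7 neutrophil genes. The libraries No MM 3 and No MM 4 stood apart from the rest. Immunoglobulin genes took 26.56% and 28.97% of their counts, against 0.6365% to 3.862% elsewhere, and the 6 plasma cell markers summed to 8258 and 8522 CPM, against 560.6 to 1243 CPM in the other libraries, MM included. These libraries also had the lowest osteoblast marker scores of all, 6.49 and 6.11 on a log2 CPM scale against 8.40 to 10.41. Other lists were lowest there too. Neutrophil genes summed to 6860 and 8063 CPM against 9813 to 31810 CPM, and erythroid genes to 785.3 and 2728 CPM against 6511 to 50340 CPM. Osteoclast genes summed to 995.2 and 796.8 CPM against 2451 to 13540 CPM. Not all lists did so, as muscle genes summed to 3228 and 1423 CPM against 484.1 to 5090 CPM. For this reason fold changes are also given without them, and directions against No MM refer to libraries so labelled.

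No antagonist could be called higher or lower in MM. With edgeR's quasi-likelihood test and Benjamini-Hochberg adjustment over 16186 genes, 0 of 10 passed an adjusted p of 0.05, and 0% of all tested genes did. At an unadjusted p under 0.05, 0 of 10 members passed, beside 14.1% of all tested genes. In 0 of 10 members were the groups separate, against 1.41% of all genes. DESeq2 called 0 of 10 members and 1.34% of the genes to which it gave an adjusted p. The fitted log2 fold change (MM over No MM) was above 0 for 3 members (and for 47.3% of all tested genes) and below 0 for 7, with a median of -0.14 beside -0.03 for all tested genes. Scaled by library totals alone, which moved the median of all genes to 0.30, 8 members were above 0 and 2 below. The intervals were wide, however, and for Sost the 95% interval ran from 0.26-fold to 2.2-fold.

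The members differed far more from each other than between the groups. Per kilobase of gene length, the median over 10 libraries was 102 CPM per kb for Sost, 42.4 for Sfrp4, 31.1 for Wif1 and 14.2 for Dkk1. Dkk3 (3.44 CPM per kb), Sfrp1 (2.94), Frzb (1.89) and Sfrp2 (0.958) followed. The lowest medians were those of Sostdc1 (0.298 CPM per kb) and Dkk2 (0.213). The ranges of all neighbours in this order overlapped over the 10 libraries. Within single libraries, Wif1 exceeded Dkk1 in 10 of 10, Dkk1 exceeded Dkk3 in 10 of 10, Sost exceeded Sfrp4 in 9 of 10 and Sfrp2 exceeded Sostdc1 in 9 of 10. The remaining neighbours changed places more often, with the order held in 8 of 10 libraries for Sfrp1 and Frzb, in 7 of 10 for Sfrp4 and Wif1, for Dkk3 and Sfrp1 and for Frzb and Sfrp2, and in 6 of 10 for Sostdc1 and Dkk2. Sost led in 8 libraries, Wif1 in No MM 1 and Sfrp4 in MM 8. The part of the summed level of the 10 genes that Sost took was 55.3 ± 18.2% in No MM and 50.2 ± 19.6% in MM (SD, n = 5 each; exact permutation test, two-sided, p = 0.698).

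**Figure D1:**
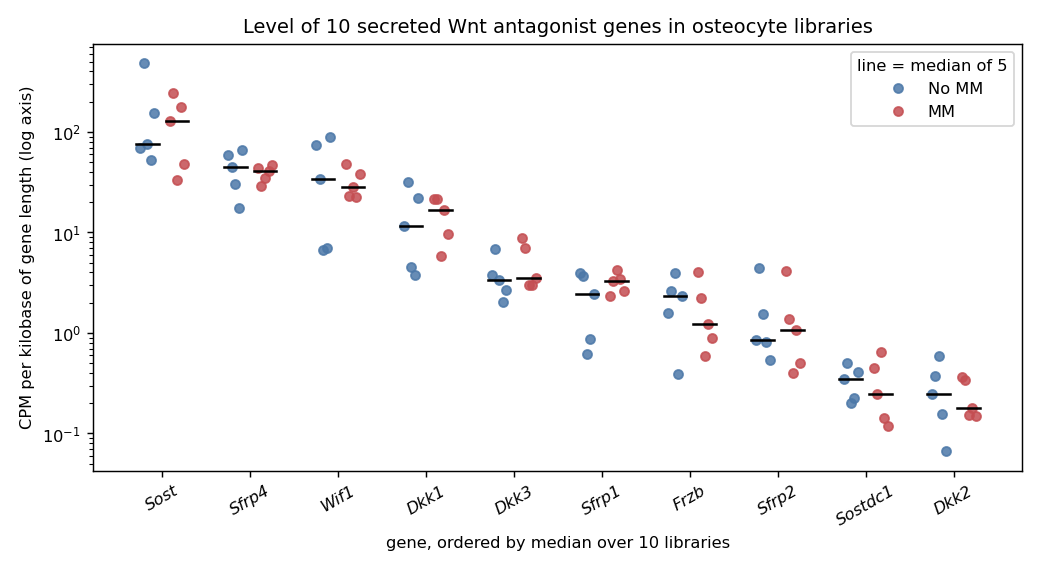
Level of the 10 secreted Wnt antagonists in each of 10 libraries, as CPM per kilobase of gene length on a log axis, with No MM in blue and MM in red (n = 5 each) and a line at each group's median. Sost had the highest median (102 CPM per kb over all libraries) and Dkk2 the lowest (0.213), and the blue and red points of every gene overlapped.

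Promoter sequence is shown for Sost, Dkk2 and Sfrp2, which stood first, last and eighth in the order of levels and were the 3 members whose first base in the table was also the RefSeq start. Each line gives the 250 bases before that start on the strand of the gene, from RefSeq on GRCm38.p6. The regions are chr11:101967016-101967265 on the minus strand for Sost, chr3:132085042-132085291 on the plus strand for Dkk2 and chr3:83766071-83766320 on the plus strand for Sfrp2. Capitals mark a TATAAA, the core of a TATA box, or an ACCACA, the core that RUNX factors bind, on either strand.
Sost: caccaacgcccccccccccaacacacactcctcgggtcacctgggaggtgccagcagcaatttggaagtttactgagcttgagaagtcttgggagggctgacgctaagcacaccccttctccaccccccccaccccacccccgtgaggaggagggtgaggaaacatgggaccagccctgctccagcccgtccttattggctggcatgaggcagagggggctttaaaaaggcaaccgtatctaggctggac
Dkk2: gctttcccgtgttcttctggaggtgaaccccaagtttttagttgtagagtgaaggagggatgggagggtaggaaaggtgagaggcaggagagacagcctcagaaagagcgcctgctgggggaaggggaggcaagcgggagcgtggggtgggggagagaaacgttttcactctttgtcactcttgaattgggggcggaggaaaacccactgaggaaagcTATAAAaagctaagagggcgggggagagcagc
Sfrp2: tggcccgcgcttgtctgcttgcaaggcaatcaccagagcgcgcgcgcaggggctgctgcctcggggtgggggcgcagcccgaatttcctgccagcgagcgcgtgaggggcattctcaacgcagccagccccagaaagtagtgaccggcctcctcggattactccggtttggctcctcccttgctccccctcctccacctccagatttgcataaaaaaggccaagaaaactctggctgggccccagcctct
Of the 10 members, 6 had a promoter in the table (Sost, Dkk1, Dkk2, Sfrp2, Frzb and Wif1). TATAAA was found in 3 of these, in Dkk2 at 32 bases and in Dkk1 at 54 bases before the RefSeq start, and in Wif1 at 232 bases on the opposite strand. ACCACA occurred in Dkk1 only, 207 bases before the start. Among 32851 promoters of this length, 12.4% held TATAAA and 14% held ACCACA. The windows of Sost, Sfrp2 and Frzb held neither word, which says only that these letters are not in those bases. For Dkk1, Frzb and Wif1 the gene in the deposited table begins upstream of the RefSeq start, so their windows lie partly inside it and are not printed.

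Sost (ENSMUSG00000001494; chromosome 11, 101962458 to 101967015, minus strand) encodes sclerostin, which binds LRP5 and LRP6. Its level was 143.7, 994.9, 157.6, 109.6 and 317.5 CPM in No MM 1 to 5 and 265, 501.3, 68.29, 368.7 and 99.97 CPM in MM 6 to 10. The highest library was No MM 2 and the lowest was MM 8, and the remaining MM values lay on either side of the No MM median of 157.6 CPM. Means were 344.7 ± 372 CPM in No MM and 260.7 ± 182 CPM in MM (SD, n = 5 each), a log2 fold change of -0.40 (SE 0.70) with an adjusted p of 0.813 in edgeR. The direction rested on No MM 2. Without it the log2 fold change was 0.51 (SE 0.58), while without No MM 3 and No MM 4 it was -0.91 (SE 0.73, adjusted p = 0.68).

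Sost was also read against other osteocyte genes of the same library. The osteocyte score, the mean log2 (CPM + 0.5) of Dmp1, Mepe, Phex, Irx5 and Ackr3, was 6.264 ± 1.019 in No MM and 6.447 ± 0.821 in MM (SD, n = 5 each; exact permutation test, two-sided, p = 0.786). Over the 10 libraries, Sost varied with this score (Pearson's r = 0.872, p = 0.00168; Spearman's rho = 0.806, p = 0.00723; permutation tests, two-sided). After adjustment over 80 relations, p was 0.0344 for r and 0.116 for rho. Without No MM 2 and No MM 4, the libraries farthest from the median score, r was 0.856, and without No MM 3 and No MM 4 it was 0.905. In bulk RNA, fewer osteocytes and less Sost RNA in each osteocyte cannot be told apart.

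Once the score was subtracted, the SD of Sost over 10 libraries fell from 1.191 to 0.607 on the log2 scale. The remainder was 1.642 ± 0.583 in No MM and 1.215 ± 0.612 in MM, a difference of -0.43 (SD, n = 5 each; exact permutation test, two-sided, p = 0.23). Per read of Dmp1, the 5 No MM libraries had 0.381, 1.49, 1.25, 0.981 and 0.402 reads of Sost and the 5 MM libraries had 0.3, 0.979, 0.416, 1.3 and 0.436. Both groups thus held libraries near 0.4 and libraries near 1 or above. With the score as a covariate in edgeR, the log2 fold change of Sost was -0.49 (SE 0.345, 95% interval -1.25 to 0.28, adjusted p = 0.524).

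Sostdc1 (ENSMUSG00000036169; chromosome 12, 36314169 to 36318452), the relative of sclerostin also called ectodin, was low. It had 8 to 48 reads a library, from 0.3554 to 0.8727 CPM in No MM and from 0.2082 to 1.134 CPM in MM. The MM values thus spanned the whole No MM range. Its log2 fold change was -0.08 (SE 0.497, adjusted p = 0.957 in edgeR), and it turned above 0 when any 1 of No MM 2, No MM 5, MM 7, MM 9 and MM 10 was left out. Without both No MM 3 and No MM 4 it was -0.40 (SE 0.559).

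Dkk1 (ENSMUSG00000024868; chromosome 19, 30545863 to 30549665, minus strand) encodes the Dickkopf protein that blocks LRP5 and LRP6 with the help of Kremen receptors. It was found at 28.07, 76.44, 10.89, 9.11 and 53.78 CPM in No MM and at 51.69, 52.38, 14.22, 41.07 and 23.44 CPM in MM. The lowest values of all were those of No MM 3 and No MM 4, and the highest was that of No MM 2. Group means were nearly equal, 35.66 ± 29 CPM in No MM and 36.56 ± 17.1 CPM in MM (SD, n = 5 each), with a log2 fold change of 0.04 (SE 0.584, adjusted p = 0.984 in edgeR). So near 0, the sign changed when any 1 of No MM 1, No MM 3, No MM 4, MM 6, MM 7 and MM 9 was left out, and without both No MM 3 and No MM 4 the value was -0.54 (SE 0.449).

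Among the 10 antagonists, Dkk1 followed the osteocyte score most closely. Over 10 libraries r was 0.978 (permutation p = 1e-05, the smallest that 100000 permutations can give; adjusted p = 0.0008) and rho was 0.952 (permutation p = 0.00017, adjusted p = 0.0136). Without No MM 2 and No MM 4, r was 0.966, and without No MM 3 and No MM 4 it was 0.986. Subtracting the score lowered the SD of Dkk1 over all libraries from 1.05 to 0.265 on the log2 scale. What was left was -1.537 ± 0.359 in No MM and -1.393 ± 0.128 in MM, a difference of 0.14 (SD, n = 5 each; exact permutation test, two-sided, p = 0.413). In edgeR with the score as covariate, the interval for Dkk1 narrowed to between -0.25 and 0.48 in log2 (estimate 0.12, SE 0.165, adjusted p = 0.762). Dkk1 also correlated with the cartilage (r = 0.831), marrow stromal (0.85), fibroblast and periosteum (0.809), tendon (0.808) and osteoblast (0.806) scores, each with an adjusted p of 0.0344 for r but of 0.0771 to 0.158 for rho. Of these, the relations to the osteoblast, fibroblast and stromal scores were r = 0.438, 0.589 and 0.614 without No MM 3 and No MM 4.

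**Figure D2:**
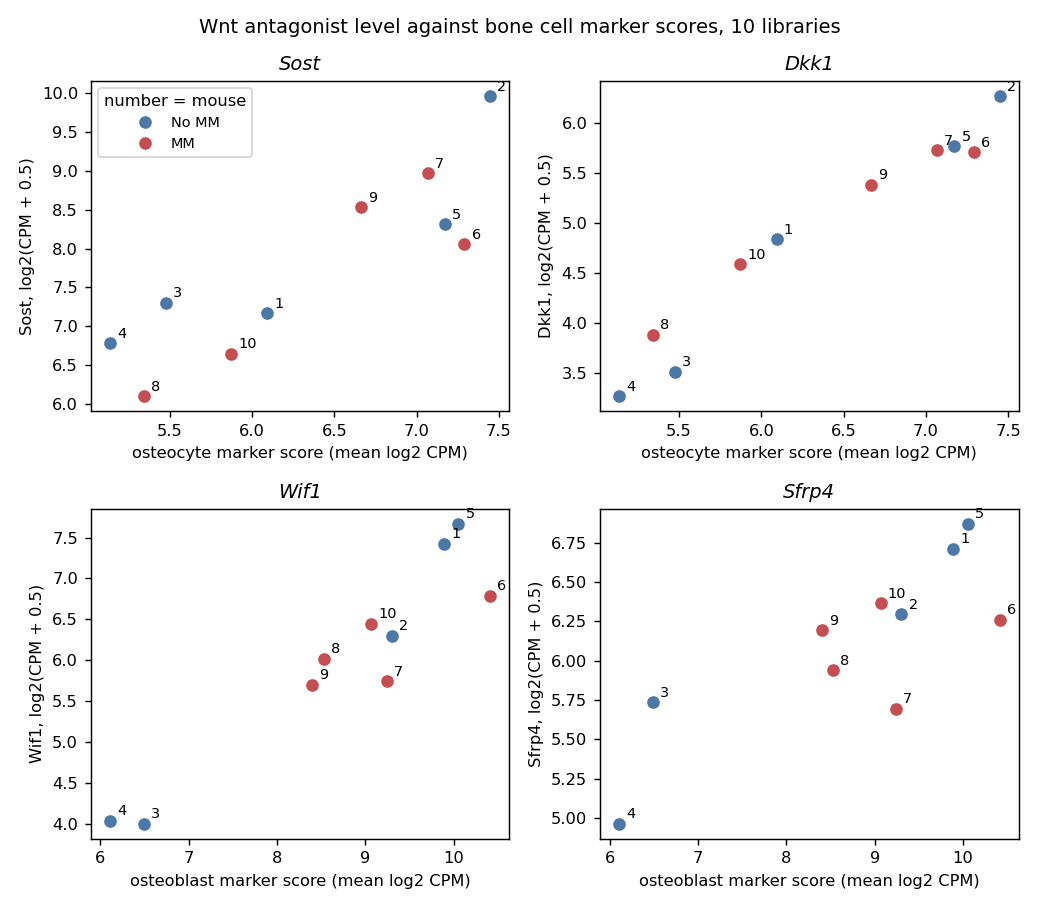
Sost and Dkk1 against the osteocyte marker score, and Wif1 and Sfrp4 against the osteoblast marker score, in 10 libraries, with gene levels as log2 (CPM + 0.5), scores as mean log2 CPM and each point numbered by mouse (No MM 1 to 5 in blue, MM 6 to 10 in red). Dkk1 lay nearest to a line (r = 0.978), and the points No MM 3 and No MM 4 formed the lower left corner of the Wif1 panel.

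Dkk2 (ENSMUSG00000028031; chromosome 3, 132085292 to 132180293), which can act on LRP6 as an antagonist or a weak agonist, was the lowest member per length. It ranged from 0.245 to 2.197 CPM in No MM and from 0.5464 to 1.345 CPM in MM, on 10 to 68 reads. All MM values lay inside the No MM range. The log2 fold change was -0.27 (SE 0.543, adjusted p = 0.838 in edgeR), 0.17 without No MM 3, and 0.04 (SE 0.575) without both No MM 3 and No MM 4.

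Dkk3 (ENSMUSG00000030772; chromosome 7, 112116019 to 112159057, minus strand) is a divergent Dickkopf whose action on LRP co-receptors is disputed. Its level was 12.65, 22.97, 11.28, 6.896 and 9.066 CPM in No MM and 29.42, 23.32, 10.09, 10.14 and 11.81 CPM in MM. The upper MM values came from MM 6 and MM 7, and the other MM libraries lay within the No MM range. Dkk3 had a log2 fold change of 0.43 (SE 0.404, adjusted p = 0.635 in edgeR), above 0 with each mouse left out in turn, and 0.17 (SE 0.453) without No MM 3 and No MM 4.

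**Figure D3:**
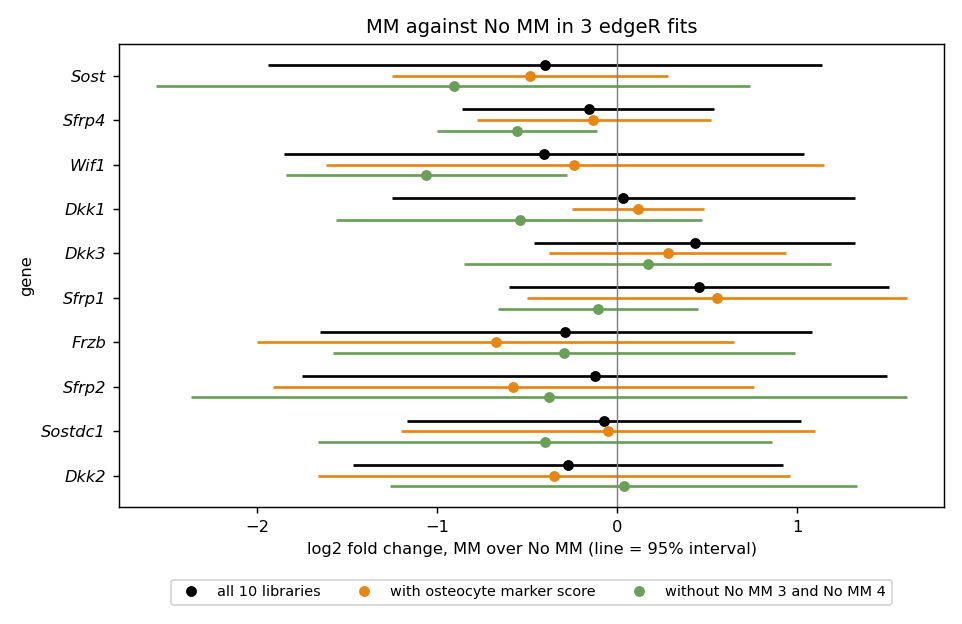
Log2 fold change, MM over No MM, of the 10 antagonists in edgeR with all 10 libraries (black), with the osteocyte marker score as covariate (orange) and without No MM 3 and No MM 4 (green), with lines for the 95% interval. The green intervals of Wif1 (-1.84 to -0.28) and Sfrp4 (-1.0 to -0.11) lay below 0, and all other intervals crossed it.

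Of the secreted frizzled-related proteins, which hold a frizzled-like domain that binds Wnt, Sfrp4 was the most abundant. Sfrp4 (ENSMUSG00000021319; chromosome 13, 19623175 to 19632821) stood at 104.4, 78.10, 52.83, 30.67 and 116.7 CPM in No MM and at 76.25, 51.32, 60.87, 72.66 and 81.99 CPM in MM. MM libraries were close together, whereas No MM libraries spread from the lowest value of all, in No MM 4, to the highest, in No MM 5. The means were 76.53 ± 35.5 and 68.62 ± 12.4 CPM (SD, n = 5 each), with a log2 fold change of -0.16 (SE 0.318, adjusted p = 0.842 in edgeR) that was 0.05 without No MM 5. Without No MM 3 and No MM 4 it was -0.56 (SE 0.197, 95% interval -1.0 to -0.11, unadjusted p = 0.0196, adjusted p = 0.643).

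Wif1 (ENSMUSG00000020218; chromosome 10, 121033960 to 121100650) encodes a secreted protein that binds Wnt outside the frizzled-related family. Its level was 171.3, 78.18, 15.48, 15.90 and 203.2 CPM in No MM and 110, 53.0, 64.37, 51.57 and 86.62 CPM in MM. The 2 lowest and the 2 highest libraries were all No MM, and the 5 MM libraries lay between them. Means of 96.81 ± 87.1 CPM in No MM and 73.1 ± 24.9 CPM in MM (SD, n = 5 each) gave a log2 fold change of -0.41 (SE 0.655, adjusted p = 0.798 in edgeR), which was 0.06 without No MM 5.

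With No MM 3 and No MM 4 left out, the log2 fold change of Wif1 was -1.06 (SE 0.346, 95% interval -1.84 to -0.28, unadjusted p = 0.0131, adjusted p = 0.643 in edgeR). Wif1 and Sfrp4 were then the 2 of 10 members with an unadjusted p under 0.05, a mark reached by 5.89% of the genes tested in that setting, and by 3.37% in the lower direction. Neither passed the adjusted threshold. The groups still overlapped for both. Wif1 lay between 78.18 and 203.2 CPM in the remaining No MM libraries and between 51.57 and 110 CPM in MM, and Sfrp4 between 78.1 and 116.7 CPM and between 51.32 and 81.99 CPM.

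Wif1 and Sfrp4 varied together and with osteoblast markers. Over 10 libraries their correlation was r = 0.898 (permutation p = 0.0003) and rho = 0.879 (permutation p = 0.0019), with adjusted p-values of 0.0135 and 0.0427 over 45 pairs of members. Leaving out No MM 4 and No MM 5 gave r = 0.812, and leaving out No MM 3 and No MM 4 gave 0.897. Of the 45 pairs, this was the 1 with an adjusted p under 0.05 for Pearson's r. Sost and Dkk1, both in the list of osteocyte markers, had r = 0.835 (permutation p = 0.00308, adjusted p = 0.0693) and rho = 0.806 (permutation p = 0.00722, adjusted p = 0.108). For Dkk2 and Sfrp2, r was 0.723 (permutation p = 0.0177, adjusted p = 0.168) and rho was 0.903 (permutation p = 0.00081, adjusted p = 0.0364).

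The osteoblast score, the mean log2 (CPM + 0.5) of Runx2, Sp7, Alpl, Ibsp, Bglap, Bglap2, Col1a1 and Col1a2, was 8.367 ± 1.914 in No MM and 9.128 ± 0.8 in MM (SD, n = 5 each; exact permutation test, two-sided, p = 0.429). Wif1 had r = 0.943 with it (permutation p = 0.00029, adjusted p = 0.0116) and rho = 0.891 (permutation p = 0.00128, adjusted p = 0.0512). This relation was r = 0.783 without No MM 3 and No MM 4, the 2 libraries farthest from the median score. For Sfrp4, r was 0.812 (permutation p = 0.00401, adjusted p = 0.0344) and rho was 0.709 (permutation p = 0.028, adjusted p = 0.143), with r = 0.542 without these libraries. The relations were not particular to osteoblast markers. With fibroblast and periosteum markers, r over 10 libraries was 0.762 for Wif1 and 0.755 for Sfrp4. Without No MM 3 and No MM 4 these were 0.389 and 0.274. Sfrp4 also had r = 0.642 with cartilage markers, or 0.331 without those libraries. Relative to the osteoblast score, Wif1 was -2.482 ± 0.336 in No MM and -2.989 ± 0.528 in MM, a difference of -0.51 (exact permutation test, two-sided, p = 0.127). For Sfrp4 the difference was -0.79 (exact permutation test, two-sided, p = 0.262). Subtracting the score lowered the SD of Wif1 over 10 libraries from 1.236 to 0.496 on the log2 scale. It raised that of Sfrp4 from 0.551 to 1.043. With the score as covariate, a setting chosen after seeing the data, edgeR gave -0.37 for Wif1 (SE 0.236, adjusted p = 0.489) and -0.27 for Sfrp4 (SE 0.196, adjusted p = 0.541).

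**Figure D4:**
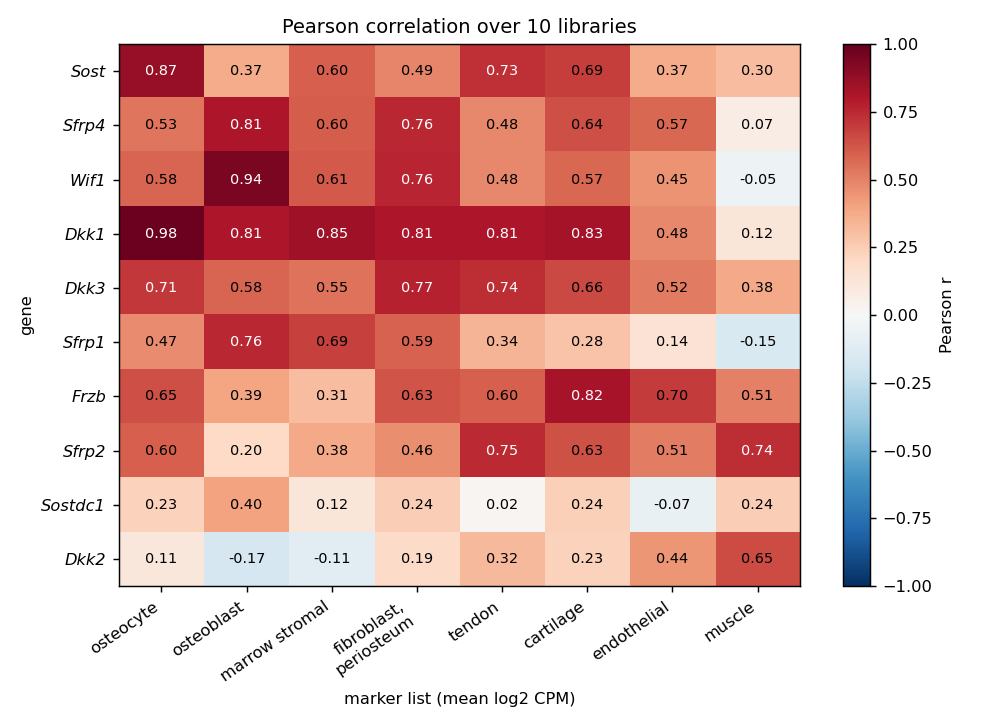
Pearson correlation over 10 libraries between each antagonist (vertical axis) and the mean log2 CPM of 8 marker lists (horizontal axis), with the coefficient printed in each cell and color from -1 (blue) to 1 (red). The highest coefficients were those of Dkk1 with osteocyte markers (0.978) and Wif1 with osteoblast markers (0.943), and 10 of the 80 relations had an adjusted p under 0.05 for r and 1 of 80, Dkk1 with osteocyte markers, for rho.

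Sfrp1 (ENSMUSG00000031548; chromosome 8, 23411502 to 23449632), a broad Wnt inhibitor expressed in cells of the osteoblast lineage, was at 17.41, 16.24, 2.682, 3.775 and 10.68 CPM in No MM and at 10.25, 14.30, 18.57, 15.16 and 11.45 CPM in MM. The low values belonged to No MM 3 and No MM 4, and the other No MM libraries lay within the MM range. Its log2 fold change of 0.46 (SE 0.478, adjusted p = 0.673 in edgeR) was -0.11 (SE 0.246) without them. The correlation of Sfrp1 with the osteoblast score rested on them too, with r = 0.757 (permutation p = 0.0216, adjusted p = 0.096) over 10 libraries but rho = 0.212 (permutation p = 0.56, adjusted p = 0.669), and r = -0.578 over the other 8.

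Frzb (ENSMUSG00000027004; chromosome 2, 80411970 to 80447625, minus strand), the frizzled-related protein best known from cartilage, was measured at 4.952, 8.221, 12.50, 1.234 and 7.326 CPM in No MM and at 12.60, 6.946, 1.867, 3.886 and 2.784 CPM in MM. No MM 3 and MM 6 were the high libraries. The log2 fold change was -0.29 (SE 0.62, adjusted p = 0.855 in edgeR), 0.05 without No MM 3, and -0.30 (SE 0.57) without both No MM 3 and No MM 4. Frzb went with the cartilage markers (r = 0.825, permutation p = 0.00325, adjusted p = 0.0344; rho = 0.77, permutation p = 0.0121, adjusted p = 0.129), with r = 0.632 without No MM 4 and MM 6 and 0.923 without No MM 3 and No MM 4. The relation was not particular to cartilage. Without No MM 3 and No MM 4, r was 0.917 with the osteocyte score and 0.8 with tendon markers. It was 0.778 with fibroblast and periosteum markers, 0.769 with osteoblast markers and 0.412 to 0.634 with the remaining lists. The cartilage markers summed to 192.4 to 2061 CPM in No MM and 837.8 to 3497 CPM in MM. Of these, 0 of 7 tested had an unadjusted p under 0.05, beside 14.1% of all tested genes.

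Sfrp2 (ENSMUSG00000027996; chromosome 3, 83766321 to 83774316), found in mesenchymal and fibroblast-like cells, was at 1.714, 8.812, 3.102, 1.633 and 1.078 CPM in No MM and at 8.305, 2.757, 0.8034, 2.122 and 1.015 CPM in MM. One library of each group, No MM 2 and MM 6, lay well above the rest. The log2 fold change was -0.13 (SE 0.738, adjusted p = 0.951 in edgeR), and was above 0 without No MM 2 (0.67), MM 8 or MM 10, and -0.38 (SE 0.881) without both No MM 3 and No MM 4. An antisense gene, Gm26771, overlaps Sfrp2 by 464 bases, but it had at most 6 reads in a library. Sfrp2 had r = 0.742 with muscle markers (permutation p = 0.0129, adjusted p = 0.0721; rho = 0.721, permutation p = 0.0228, adjusted p = 0.143), with r = 0.613 without No MM 2 and MM 10. Its r with tendon markers was alike, 0.746 (permutation p = 0.0134, adjusted p = 0.0721; rho = 0.697, permutation p = 0.0303, adjusted p = 0.143), with r = 0.524 without No MM 2 and MM 8. Without No MM 3 and No MM 4, r was 0.752 for muscle and 0.834 for tendon. In that setting it was also 0.747 with the osteocyte score, 0.72 with cartilage and 0.711 with fibroblast and periosteum markers. With the remaining lists it was 0.383 to 0.611. The 5 tendon genes summed to 59.27 to 250.6 CPM in No MM and 28.59 to 191.5 CPM in MM. The 6 muscle genes summed to 671.2 to 5090 CPM in No MM and 484.1 to 4406 CPM in MM, and the part of both lists in the Sfrp2 level was not tested.

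Spread between mice of 1 group set the limit for most members. The SD of log2 level within groups was 1.3 for Wif1, 1.26 for Sost, 1.1 for Dkk1, 1.05 for Sfrp2 and 1.04 for Frzb, beside a median of 0.424 over all 16186 genes. Dkk3 (0.665), Sfrp4 (0.584) and Dkk2 (0.58) varied less, and Sostdc1 (0.417) was near the median of all genes. In CPM without a pseudocount, Sost differed 14.6-fold and Wif1 13.1-fold between the lowest and highest of 10 libraries. Dkk2 differed 8.97-fold and Sostdc1 5.45-fold, against 4.27-fold for Dkk3 and 3.8-fold for Sfrp4.

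The other parts of the pathway were read by list. Of the 5 genes for co-receptors, 0 were higher and 1 was lower at an unadjusted p under 0.05, beside 3.81% and 10.3% of all tested genes in those directions. Lrp4, which anchors sclerostin on bone cells, stood at 117 ± 77.4 CPM in No MM and 179 ± 129 CPM in MM (log2 fold change 0.60, SE 0.543, adjusted p = 0.62), and its log2 fold change was 0.12 without No MM 3 and No MM 4. Lrp5 and Lrp6, the receptors that sclerostin and DKK1 block, had log2 fold changes of 0.33 (adjusted p = 0.635) and 0.07 (adjusted p = 0.902) in edgeR, and of -0.07 and 0.27 without those libraries. The lower gene was Kremen2, a DKK1 receptor, at 0.507 ± 0.208 CPM in No MM and 0.238 ± 0.142 CPM in MM (log2 fold change -1.07, SE 0.484, adjusted p = 0.353), on at most 24 reads. This call was lost without No MM 3 and No MM 4 (log2 fold change -0.68, SE 0.557, unadjusted p = 0.256). The median log2 fold change of the co-receptors was 0.07 with all libraries and -0.07 without these. Of 9 frizzled genes tested, none had an unadjusted p under 0.05, beside 14.1% of all tested genes. The largest differences were those of Fzd2 (-0.59, adjusted p = 0.54) and Fzd9 (-0.54, adjusted p = 0.614). They were -0.84 and -0.91 without No MM 3 and No MM 4.

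Wnt ligands had 12 tested genes of 18 in the table, and the median log2 fold change was -0.30, or -0.24 without No MM 3 and No MM 4. At an unadjusted p under 0.05, 3 were lower in MM and 0 were higher, beside 10.3% and 3.81% of all tested genes. Wnt10a (-4.48, SE 1.347, adjusted p = 0.315) and Wnt6 (-2.54, SE 0.797, adjusted p = 0.315) differed most. Both were high in the immunoglobulin-rich libraries. Wnt10a was at 70.21 CPM in No MM 3 and 93.31 CPM in No MM 4, against 0.4657 to 2.438 CPM elsewhere, and without these libraries its log2 fold change was 0.12 (SE 0.576). Wnt6 was at 3.974 and 4.609 CPM there against 0.1041 to 0.5068 CPM, with a log2 fold change of -0.51 without them. Wnt5b (-0.70, SE 0.303, unadjusted p = 0.0405, adjusted p = 0.34) was -0.83 without them (unadjusted p = 0.0463, adjusted p = 0.643). In that setting it was the 1 of 12 ligands with an unadjusted p under 0.05, beside 3.37% of all tested genes in the lower direction.

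Targets and feedback genes of the pathway numbered 13 tested of 14. None had an unadjusted p under 0.05, beside 14.1% of all tested genes. Their median log2 fold change of 0.07 turned to -0.23 without No MM 3 and No MM 4. Axin2, a direct target of beta-catenin, was at 3.22 ± 1.55 CPM in No MM and 4.2 ± 0.821 CPM in MM (SD, n = 5 each; log2 fold change 0.38, SE 0.352, adjusted p = 0.632 in edgeR), and its log2 fold change was 0.12 without those libraries. The largest differences were those of Znrf3 and Rnf43, membrane ligases that remove frizzled receptors, at -1.09 (adjusted p = 0.396) and -0.75 (adjusted p = 0.457). Both were high in these libraries too. Znrf3 was at 21.32 CPM in No MM 3 and 21.49 CPM in No MM 4, against 2.4 to 6.701 CPM elsewhere, and its log2 fold change was 0.26 without them. Rnf43 was at 20.13 and 16.48 CPM there, against 3.859 to 11 CPM, with a log2 fold change of 0.02 without them. The largest of the list without these libraries was Notum (-1.05, SE 0.517, unadjusted p = 0.073, adjusted p = 0.643 in edgeR). With all libraries its log2 fold change was -0.42 (SE 0.704, adjusted p = 0.807).

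**Figure D5:**
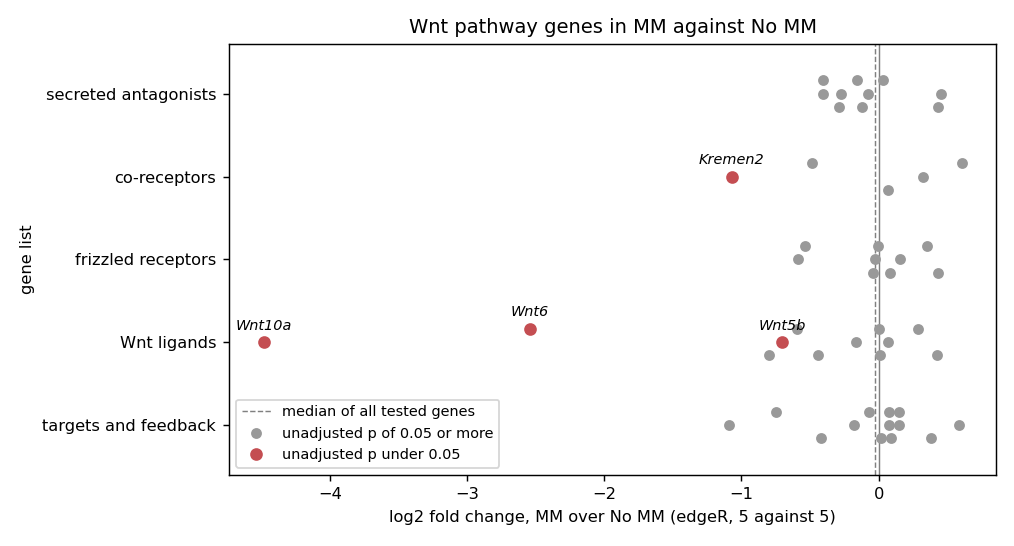
Log2 fold change, MM over No MM (horizontal axis, edgeR, 5 against 5), of each tested gene of 5 Wnt pathway lists (vertical axis), red for an unadjusted p under 0.05 and gray otherwise, with a dashed line at the median of all tested genes (-0.03). The 10 antagonists lay between -0.41 and 0.46, and Wnt10a (-4.48) and Wnt6 (-2.54), high in No MM 3 and No MM 4, lay farthest from 0.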

How the data were processed

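Osteocyte RNA of 10 mice was sequenced from both ends of TruSeq Stranded Total RNA libraries, and the labels place mice 1 to 5 in No MM and 6 to 10 in MM. The submitters' processing notes name FastQC 0.11.5 and STAR. The counting program and genome build are not given in the sources used here. The authors deposited whole-number read counts per gene, and only these and the gene lengths of the table were analyzed. The deposited normalized signal and FPKM columns were not used. The log2 and p-value columns deposited by the authors hold their comparison of MM with No MM and were not used either. GENCODE M21 (GRCm38) holds 22284 of the identifiers, 68.4% of them at the same coordinates, which held for 6 of 10 members. Coordinates are those of the table.

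The main test was edgeR 4.0.16 in R 4.3.3 (filterByExpr, TMM scaling, then glmQLFit and glmQLFTest with no covariate), with Benjamini-Hochberg adjustment over all tested genes. Single values were compared by exact permutation over the 252 assignments of 10 mice (smallest p 0.00794), and correlations by 100000 permutations. Logs of CPM for scores used a pseudocount of 0.5. DESeq2 1.42.0, other scalings and filters, left-out mice and marker scores as covariates were alternatives. The p-values measure the spread between these mice.

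The members, pathway lists and marker lists were chosen with earlier results of these data known. Named genes were the members, the 2 genes of each pathway list with the largest change plus Lrp4, Lrp5, Lrp6 and Axin2, markers, and the 3 genes most correlated with each member. Wnt5b and Notum were named after their values were seen. Ccn4, Ccn5 and Jchain were matched by their older symbols (Wisp1, Wisp2 and Igj). Wnt7a was not analysed here.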

Additional observations from a re-analysis of the deposited data

Results flagged for a closer look

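Dixon's criterion for a single high or low value, with a critical gap of 0.71 of the range for 5 mice, was applied to 22 sets of 5 values. It marked 3 sets, all of them member levels, which were tested as CPM without a log. The chance rate of 1 in 20, or 1.1 of 22, holds for normally distributed values. The count of 3 therefore cannot be set against it. In No MM, Sost was 994.9 CPM in No MM 2, against 109.6 to 317.5 CPM in the other 4 mice, a gap of 0.765 of the range. Sfrp2 in No MM was 8.812 CPM in the same library, against 1.078 to 3.102 CPM (gap 0.738). Sfrp2 in MM was 8.305 CPM in MM 6, against 0.8034 to 2.757 CPM (gap 0.74). No MM 2 also had the highest osteocyte score (7.45) and the highest tendon score (4.12) of all libraries, and MM 6 had the next highest of both (7.29 and 3.99). Their part in these values was not tested.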

How the results depend on the processing

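The paper speaks of a paired differential analysis. No paired fit was made here, because the labels do not say which No MM mouse would go with which MM mouse. The number of members past the adjusted threshold was 0 under every alternative run, with 20 in all. The number with an unadjusted p under 0.05 was 0 except without No MM 3 and No MM 4, where it was 2 (Wif1 and Sfrp4). With library totals as the only scaling, the median log2 fold change of all genes moved from -0.03 to 0.30, and those of Sostdc1 (0.20), Dkk2 (0.11), Sfrp2 (0.15), Sfrp4 (0.10) and Frzb (0.013) turned above 0, each lower than that median. Without No MM 3 and No MM 4, Dkk1 (-0.54), Dkk2 (0.038) and Sfrp1 (-0.11) changed sign, and with the osteoblast score as covariate, chosen after seeing the data, Dkk1 did (-0.14). Leaving out 1 mouse at a time gave log2 fold changes of -0.78 to 0.51 for Sost, -0.50 to 0.13 for Sostdc1, -0.21 to 0.51 for Dkk1, -0.53 to 0.17 for Dkk2, 0.14 to 0.76 for Dkk3, 0.21 to 0.74 for Sfrp1, -0.97 to 0.67 for Sfrp2, -0.36 to 0.045 for Sfrp4, -0.82 to 0.045 for Frzb and -0.68 to 0.057 for Wif1. The cause of these changes was not tested. Adjusted p-values over all alternatives lay between 0.342 (Dkk3) and 0.999 (Sostdc1). Sost relative to osteocyte markers was below 0 in MM minus No MM under each alternative run, from -0.60 to -0.21 with 1 mouse left out. With 10 counts required in every library, Sostdc1 was not tested. Counts of 8 to 48 reads for Sostdc1 and 10 to 68 for Dkk2 limit what can be seen of these genes.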

Other observations

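Genes whose levels ran most nearly parallel to each antagonist were listed by Pearson's r of log2 CPM over the 10 libraries, as a description, since libraries of mixed cells share their makeup. For Sost these were Prr15 (0.958), Mepe (0.957), a matrix protein of osteocytes, and 1810010H24Rik (0.942). For Dkk1 they were Smad9 (0.974), a transducer of BMP signals, Tmem151a (0.973) and Bambi (0.972), a decoy receptor of the TGF-beta family. Sfrp4 ran with Ror2 (0.975), a receptor of non-canonical Wnt signals, Spaca1 (0.962) and Rnf182 (0.948). Wif1 ran with Slc6a2 (0.982), the noradrenaline transporter, Gm266 (0.98) and Mfsd12 (0.976). Frzb was closest to Fbn1 (0.947), which encodes fibrillin, Tnfaip6 (0.944) and Tead4 (0.935).

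Among the less abundant members, Dkk3 was closest to Tgfa (0.971), Ednra (0.94) and Gabra3 (0.937), and Sfrp2 to Kcne4 (0.972), Klf15 (0.959) and Lsmem1 (0.959). Dkk2 was closest to Nova1 (0.913), Myog (0.9), a transcription factor of muscle, and Asb15 (0.896), and Sostdc1 to Nostrin (0.915), 5031439G07Rik (0.862) and Anxa4 (0.853). Sfrp1 was closest to D230025D16Rik (0.979), Samd1 (0.979) and Prmt10 (0.977), with r of 0.801, 0.886 and 0.747 over the 8 libraries without No MM 3 and No MM 4. For the top gene of each other member, r over these 8 libraries was between 0.879 (Dkk2 and Nova1) and 0.983 (Sfrp2 and Kcne4).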
